A study of Homo sapiens with 6 samples.

Results

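The RNA and DNA editing enzymes described here are the 7 APOBEC3 cytidine deaminases and the adenosine deaminases ADAR and ADARB1. They were chosen by gene symbol (APOBEC3A, APOBEC3B, APOBEC3C, APOBEC3D, APOBEC3F, APOBEC3G, APOBEC3H, ADAR and ADARB1), and all 9 were found among the 28278 genes counted. The cells were HT29, an established epithelial line from a human colorectal adenocarcinoma. One group received siRNA against ALDOA, a glycolytic enzyme (siALDOA, 3 libraries, ALDOA knockdown), and the other received scrambled siRNA (siControl, 3 libraries). Both groups were transfected with Lipofectamine RNAiMAX and taken for RNA-Seq after 48 h, and the labels call the 3 libraries of each group biological replicates. The label names a single siRNA reagent against ALDOA, so an effect of lower ALDOA and an effect of that siRNA cannot be told apart.

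APOBEC3 enzymes convert cytosine to uracil in single-stranded DNA, restrict viruses and retroelements, and are a known source of mutations in tumours. ADAR enzymes convert adenosine to inosine in double-stranded RNA, which keeps a cell's own RNA from setting off sensors such as the protein of IFIH1 and the kinase of EIF2AK2. Interferon raises one form of ADAR and several APOBEC3 genes in many cell types.

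The siALDOA libraries held 28166497, 28690395 and 27277538 counts in replicates 1 to 3, and the siControl libraries held 33237914, 31973122 and 31899091. Levels are given as CPM, the counts scaled to a common library depth with TMM factors, and a level of 1 CPM rests on at least 27.8 counts. The share of ribosomal RNA was 13.1%, 7.71% and 8.11% in the siALDOA libraries, against 17.4%, 15.3% and 8.15% in siControl. With libraries scaled by their totals without ribosomal RNA genes, the log2 fold change of ADAR was 0.44, against 0.43 with TMM factors. ALDOA, the target of the siRNA, stood at 283, 305 and 280 CPM with siALDOA and at 592, 637 and 668 CPM with siControl. Every siALDOA library lay below every siControl library, as labelled, and the log2 fold change was -1.13 (SE 0.06, adjusted p = 6.95e-11 by edgeR's quasi-likelihood test with Benjamini-Hochberg adjustment). The p-values below come from the same test, adjusted over the 15307 genes with enough counts, and a gene was called at an adjusted p under 0.05.

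Of the 9 editing enzymes, 6 had enough counts for the test, and ADAR was the 1 enzyme called. It was higher with siALDOA, and 0 were lower. Among all 15307 tested genes, 668 (4.36%) were called higher and 810 (5.29%) lower, so a single call among 6 enzymes says little about the family as a whole. With libraries scaled by their totals alone, 896 genes were called higher and 279 lower, and ADAR remained the 1 enzyme called. The background also moved with single libraries, to 359 higher and 490 lower without siControl replicate 2 and to 363 higher and 471 lower without siControl replicate 3. No enzyme was lower at an unadjusted p under 0.05 either (0 of 6), and DESeq2 and limma-voom each called 1 enzyme higher and 0 lower. Every siALDOA library lay above every siControl library for 1 of the 6 enzymes, ADAR, against 13.1% of all tested genes. The opposite order was seen for 0 of the 6, against 14.6% of all tested genes.

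**Figure D1:**
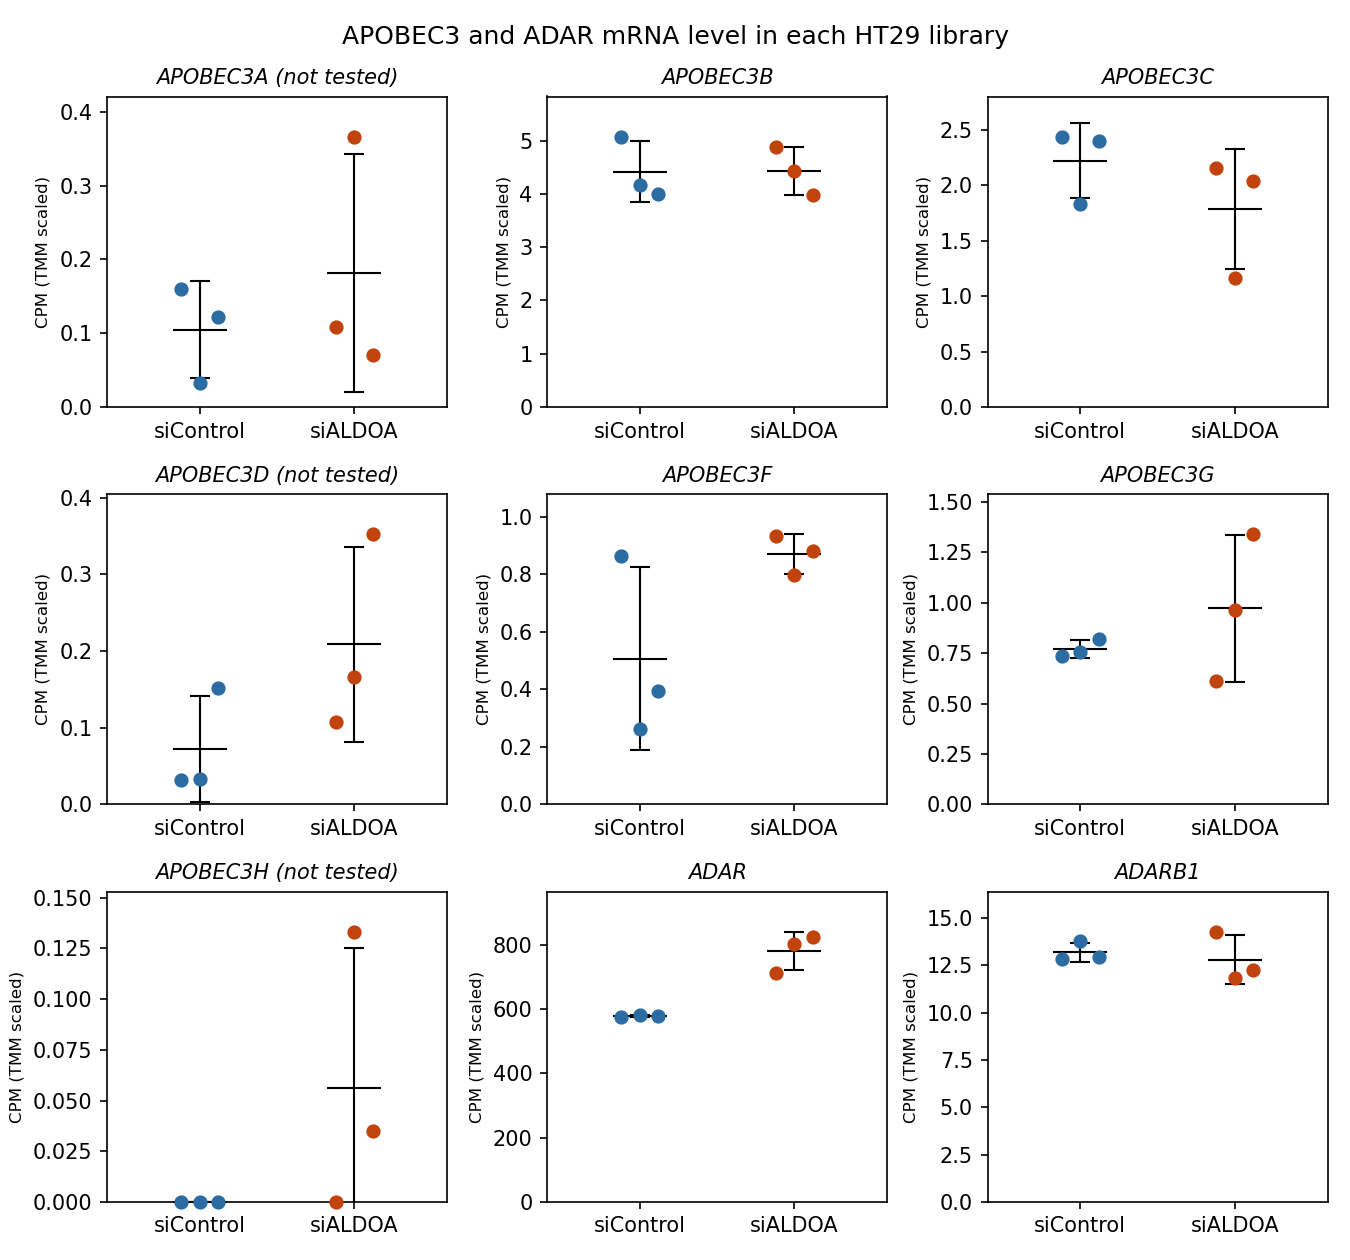
Level of each editing enzyme in CPM (vertical axes, each from 0 on its own scale) in the 3 siControl libraries (blue) and the 3 siALDOA libraries (red); points are libraries, the wide bar is the mean and the whiskers are 1 SD. For ADAR the siALDOA libraries lie between 714 and 826 CPM and the siControl libraries between 575 and 581 CPM, while the groups overlap for the other 8 enzymes.

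ADAR, the widely expressed adenosine deaminase, lies on the minus strand of chromosome 1 in hg38 (ENSG00000160710, chr1:154581695-154628013). Its counts were 19865, 24134 and 23475 in siALDOA replicates 1 to 3 and 17933, 17741 and 19034 in siControl replicates 1 to 3. In CPM these were 714, 803 and 826 with siALDOA and 575, 581 and 578 with siControl. The siControl libraries were close together, siALDOA replicate 1 was the lowest of its group, and the groups did not overlap. The level rose from 578 ± 3.13 CPM (SD, n = 3) to 781 ± 59.4 CPM (SD, n = 3). The log2 fold change was 0.43 (SE 0.06, 95% confidence interval 0.30 to 0.56, adjusted p = 7.91e-05 by edgeR's quasi-likelihood test with Benjamini-Hochberg adjustment), or 1.35-fold (interval 1.24 to 1.48). By mean CPM, ADAR was number 110 of the tested genes, so its change was measured with many counts. Among the 668 genes called higher it was number 114 by p-value and number 260 by log2 fold change, and the median of those 668 was 0.37. In these bulk libraries, a change in the share of cells that carry an mRNA and a change in the mRNA per cell cannot be told apart. Counts were per gene, so the interferon-inducible long form and the constitutive short form of ADAR were not measured separately.

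ADARB1, the adenosine deaminase that recodes the glutamate receptor mRNA GRIA2 in the brain, lies on the plus strand (ENSG00000197381, chr21:45073853-45226560). Its level was 14.3, 11.8 and 12.2 CPM in siALDOA replicates 1 to 3 and 12.9, 13.8 and 13.0 CPM in siControl replicates 1 to 3. The groups overlapped, and the highest library was siALDOA replicate 1. The log2 fold change was -0.05 (95% confidence interval -0.28 to 0.18, adjusted p = 0.847 by edgeR's quasi-likelihood test with Benjamini-Hochberg adjustment). Its sign turned without siALDOA replicate 2 (0.01) and with library totals alone (0.03). The interval leaves out a rise as large as that of ADAR.

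The ratio of ADAR to ADARB1 counts was 50.04, 67.8 and 67.5 with siALDOA and 44.7, 42.2 and 44.6 with siControl, without overlap. The mean log2 ratio was higher by 0.48 with siALDOA, and a two-sided exact permutation test over the 20 assignments of libraries gave p = 0.1, the smallest value that 3 against 3 libraries allow. The ratio of ADAR to APOBEC3B counts was 146, 181 and 208 with siALDOA and 114, 140 and 144 with siControl. Its groups did not overlap either, with a difference of 0.42 in mean log2 ratio and an exact permutation p of 0.1 (0.1 for both after Benjamini-Hochberg adjustment over the 2 ratios). Since this test could not go below that value, it says nothing on whether ADAR changed more than ADARB1 or APOBEC3B. It did not keep same-numbered libraries together. In each of the 3 same-numbered pairs both ratios were higher with siALDOA, which must be so for any pairing of groups that do not overlap. Both ratios were chosen after the values were seen.

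The 7 APOBEC3 genes lie side by side on the plus strand of chromosome 22 in hg38 (chr22:38952741-39104067), over 151.3 kb from APOBEC3A to APOBEC3H. Of these, 4 were tested and 0 were called in either direction, against 4.36% of all tested genes called higher and 5.29% lower. At an unadjusted p under 0.05 the count was 0 as well, and so it was with DESeq2 and limma-voom. APOBEC3H held 0 counts in the siControl group, where 3 counts, the limit that 0 counts allow, equal 0.031 CPM over the group. Such limits and the intervals of shares cover counting error only.

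APOBEC3B, a nuclear enzyme with a pair of deaminase domains (ENSG00000179750, chr22:38982347-38992804), gave 136, 133 and 113 counts in the siALDOA libraries, against 158, 127 and 132 in siControl. Its level was 4.89, 4.43 and 3.98 CPM with siALDOA and 5.07, 4.16 and 4.01 CPM with siControl. The 2 groups covered nearly the same range, with replicate 1 the highest in both. The log2 fold change was 0.01 (SE 0.18, 95% confidence interval -0.37 to 0.38, adjusted p = 0.987 by edgeR's quasi-likelihood test with Benjamini-Hochberg adjustment). The interval leaves room for a change of up to 1.30-fold upwards and down to 0.775-fold. Its sign turned without siALDOA replicate 1 (-0.07), without siControl replicate 2 (-0.04) or without siControl replicate 3 (-0.06).

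APOBEC3C, a restriction factor with 1 deaminase domain (ENSG00000244509, chr22:39014257-39020352), gave 60, 35 and 58 counts in the siALDOA libraries, against 76, 56 and 79 in siControl. In CPM these were 2.16, 1.16 and 2.04 against 2.44, 1.83 and 2.398. The lowest library was siALDOA replicate 2, and the groups overlapped. The log2 fold change was -0.32 (95% confidence interval -0.92 to 0.28, adjusted p = 0.552 by edgeR's quasi-likelihood test with Benjamini-Hochberg adjustment). Without siALDOA replicate 2 it was -0.09, and between -0.48 and -0.25 without any other single library.

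APOBEC3F and APOBEC3G, which block retroviruses that lack a counter-measure, rested on fewer counts. APOBEC3F (ENSG00000128394, chr22:39040604-39055972) gave 26, 24 and 25 counts in the siALDOA libraries, against 27, 8 and 13 in siControl. In siControl replicate 1 it was as high as with siALDOA, so the groups overlapped. Its log2 fold change of 0.77 had a wide interval (-0.18 to 1.72) and an adjusted p of 0.325 by edgeR's quasi-likelihood test with Benjamini-Hochberg adjustment. APOBEC3G (ENSG00000239713, chr22:39077067-39087743) gave 17, 29 and 38 counts in the siALDOA libraries, against 23, 23 and 27 in siControl. The siALDOA libraries spread to both sides of the siControl libraries. Its log2 fold change was 0.33 (interval -0.49 to 1.16, adjusted p = 0.672 by edgeR's quasi-likelihood test with Benjamini-Hochberg adjustment), and 0.04 without siALDOA replicate 3. That of APOBEC3F was 1.39 without siControl replicate 1 and 0.47 without siControl replicate 2.

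The remaining 3 APOBEC3 genes were under the filter on low counts and were not tested. APOBEC3A (ENSG00000128383, chr22:38952741-38963184), an interferon-responsive enzyme of myeloid cells and some epithelia, gave 3, 11 and 2 counts in the siALDOA libraries, against 5, 1 and 4 in siControl. APOBEC3D (ENSG00000243811, chr22:39021113-39033277) gave 3, 5 and 10 counts in the siALDOA libraries, against 1, 1 and 5 in siControl. APOBEC3H (ENSG00000100298, chr22:39097224-39104067) gave 0, 4 and 1 counts in the siALDOA libraries, against 0 throughout siControl. The counts given to all 3 genes were near the limit of detection, and no difference between the groups was detected. Without the filter their adjusted p-values were 0.743, 0.539 and 0.359 by edgeR's quasi-likelihood test with Benjamini-Hochberg adjustment. How reads were divided between APOBEC3A and APOBEC3A_B, a counted symbol with the same coding part described below, is not known. The low counts of APOBEC3A may therefore not be its level.

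The summed level of the 7 APOBEC3 genes was 8.80, 8.02 and 8.69 CPM with siALDOA and 9.30, 7.08 and 7.89 CPM with siControl. A read given to another of the 7 genes leaves this sum as it is. Reads that were dropped, counted more than once or given to a gene outside the 7 would change it. The siALDOA libraries lay within the range of the siControl libraries. The means were 8.50 ± 0.424 CPM in the siALDOA group and 8.09 ± 1.12 CPM in siControl (SD, n = 3 each), a log2 ratio of 0.07. This ratio was not computed with single libraries left out. With these factors siControl replicate 1 lay above every siALDOA library, and siControl replicates 2 and 3 lay below every siALDOA library. Scaled by library totals alone the log2 ratio was 0.15, and siALDOA replicate 3, at 9.06 CPM, lay above the highest siControl library, at 8.72 CPM. APOBEC3B alone gave 55.5%, 55.2% and 45.7% of the APOBEC3 counts with siALDOA and 54.5%, 58.8% and 50.8% with siControl. The exact 95% binomial interval of the lowest of these shares, in siALDOA replicate 3, was 39.4% to 52.2%, and that of the highest, in siControl replicate 2, was 51.9% to 65.4%.

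Levels were compared between genes per kb of annotated exons. ADAR was the highest, at 63.8 ± 4.86 CPM per kb in the siALDOA group and 47.2 ± 0.256 CPM per kb in siControl (SD, n = 3 each). APOBEC3B followed with 2.34 ± 0.240 and 2.33 ± 0.302 CPM per kb, ADARB1 with 1.24 ± 0.126 and 1.28 ± 0.048, and APOBEC3C with 0.676 ± 0.205 and 0.841 ± 0.127 (SD, n = 3 each, siALDOA first). Over the 6 libraries these 4 genes did not overlap in level, so their order held in every library. APOBEC3G, APOBEC3F, APOBEC3A, APOBEC3D and APOBEC3H came last, with 6-library means of 0.162, 0.132, 0.071, 0.056 and 0.022 CPM per kb. The ranges of neighbours among these last 5 overlapped, and their order is not resolved. Per kb of the canonical transcript, APOBEC3G stood nearer to APOBEC3C, at 0.557 against 0.758 CPM per kb over the 6 libraries.

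**Figure D2:**
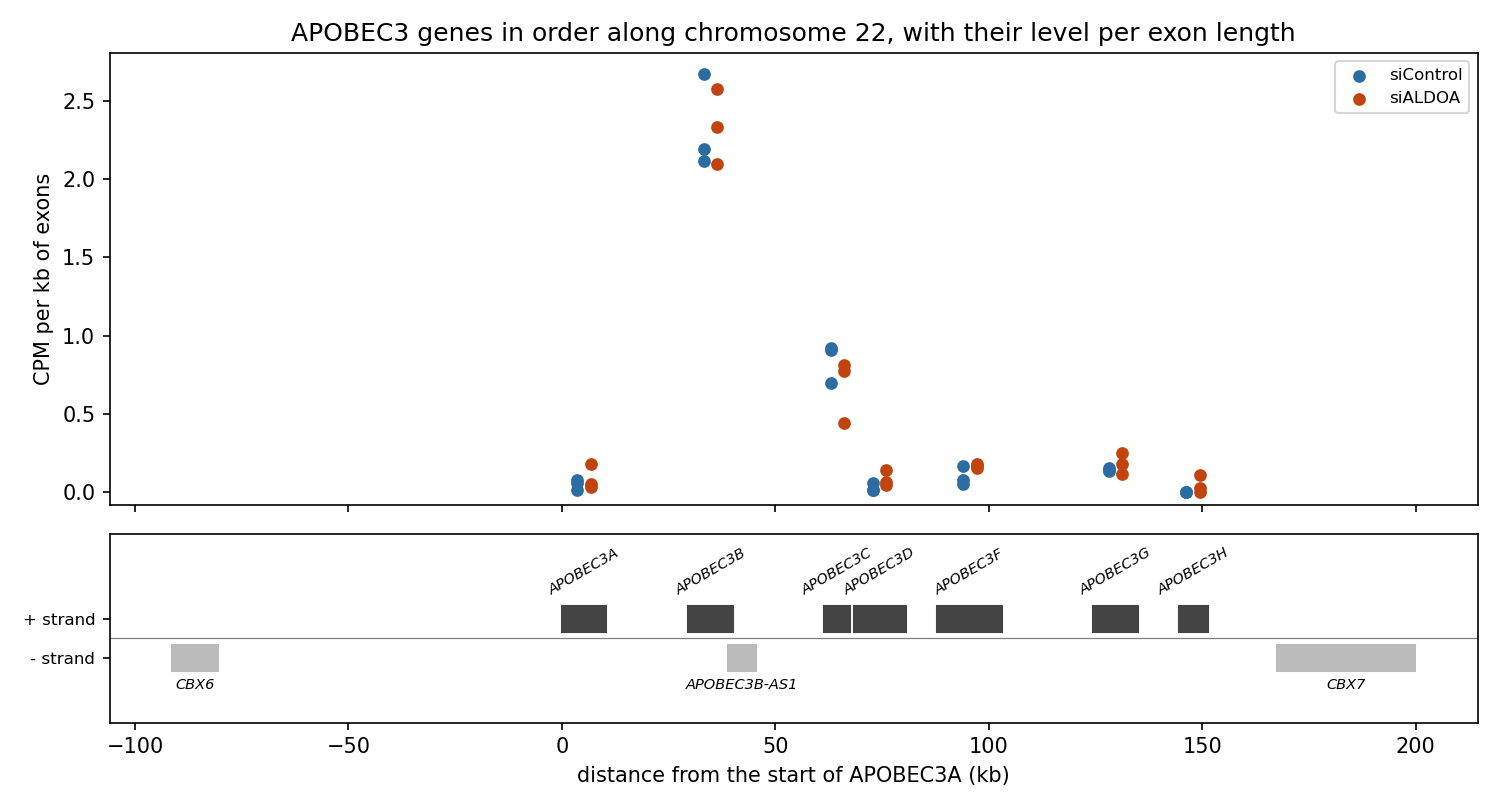
Map of the APOBEC3 genes by distance from the start of APOBEC3A in kb (horizontal axis; dark boxes are the 7 genes, grey boxes other genes of the region), with the level of each in CPM per kb of exons above it (points are libraries, siControl blue, siALDOA red). APOBEC3B, with libraries from 2.098 to 2.67 CPM per kb, stands above APOBEC3C, with libraries from 0.440 to 0.922, and above the remaining 5 genes.

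The APOBEC3 genes arose by duplication, and how the authors' counting treated reads that match several genes is not stated. Their coding sequences were compared in the canonical transcripts of GENCODE release 44. The longest stretch that APOBEC3D and APOBEC3F share base for base is 222 bases long and that of APOBEC3A and APOBEC3B is 196 bases long, both longer than a read of 150 bases. Over their aligned coding bases the pairs were identical at 89.9% and 94.1%. APOBEC3B and APOBEC3D also share a stretch longer than a read, of 172 bases, which is not printed. The longest pair of stretches is shown since a single read from inside them matches both genes. The reads were paired-end, and how often the mate of such a read lies in sequence of 1 gene was not tested. Each runs from the end of an exon (lower case) into the next exon (capitals) and is written 5′ to 3′ from the plus strand of hg38.
APOBEC3A and APOBEC3B: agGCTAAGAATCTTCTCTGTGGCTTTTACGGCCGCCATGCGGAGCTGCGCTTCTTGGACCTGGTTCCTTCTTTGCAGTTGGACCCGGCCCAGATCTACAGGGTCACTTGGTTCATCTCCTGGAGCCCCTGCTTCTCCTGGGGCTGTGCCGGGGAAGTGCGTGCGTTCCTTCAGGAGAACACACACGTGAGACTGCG
APOBEC3D and APOBEC3F: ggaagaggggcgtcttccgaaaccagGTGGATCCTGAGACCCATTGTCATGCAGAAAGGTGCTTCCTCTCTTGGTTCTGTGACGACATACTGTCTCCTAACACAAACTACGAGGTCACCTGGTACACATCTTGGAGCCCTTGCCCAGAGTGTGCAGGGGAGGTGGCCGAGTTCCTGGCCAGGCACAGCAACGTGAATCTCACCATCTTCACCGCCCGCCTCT
The capitals of the first lie in exon 3 of APOBEC3A (chr22:38961387-38961580) and exon 6 of APOBEC3B (chr22:38991332-38991525). Those of the second lie in exon 6 of APOBEC3D (chr22:39031694-39031889) and exon 6 of APOBEC3F (chr22:39052074-39052269).

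Such stretches cover a small part of most of these transcripts. Of the 150-base windows of the canonical transcripts, 9.09% of APOBEC3B, 6.20% of APOBEC3A, 4.03% of APOBEC3G and 2.99% of APOBEC3F occur exactly in a transcript of another gene. For APOBEC3C, APOBEC3H, ADAR and ADARB1 the share was 0. APOBEC3D was the exception with 84.5%, nearly all of it (83.3%) shared with a readthrough gene annotated from APOBEC3C into APOBEC3D (ENSG00000284554). The counts of APOBEC3D are therefore uncertain, and those of APOBEC3A, with few reads beside a more abundant near-copy, are too. For APOBEC3A the only other gene that this search gave was APOBEC3B. The 6.20% therefore leaves out windows held by APOBEC3A_B, a counted symbol with the same coding part that is described below.

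**Figure D3:**
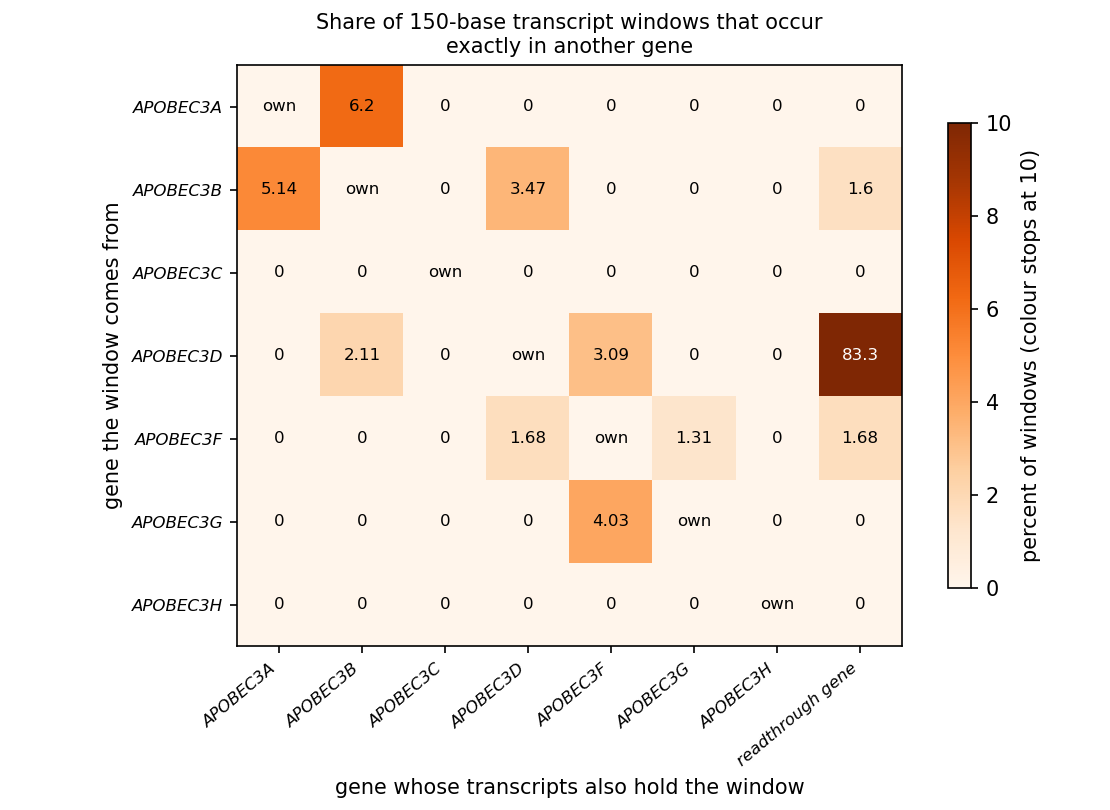
Percent of the 150-base windows of each APOBEC3 canonical transcript (rows) that occur exactly in transcripts of another gene (columns), with the value in each cell. APOBEC3D shares 83.3% of its windows with the readthrough gene. No pair of the APOBEC3 genes shown shares more than the 6.20% of APOBEC3A windows found in APOBEC3B, and APOBEC3A_B is not among them.

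The counted symbols include further genes at the same place. APOBEC3A_B, the symbol for the hybrid gene of a common deletion allele, gave 19, 35 and 6 counts in the siALDOA libraries, against 30, 9 and 18 in siControl, so the groups overlapped. It joins the coding part of APOBEC3A to the end of APOBEC3B, so a read from inside that coding part matches both APOBEC3A and APOBEC3A_B. How the counting divided such reads is not stated, and the counts of both symbols are uncertain. With the counts of APOBEC3A_B added the log2 ratio of the summed APOBEC3 level was 0.08, against 0.07 without them, an alternative chosen after seeing the data. APOBEC3B-AS1, on the opposite strand, overlaps 244 exon bases (12.9%) of APOBEC3B and gave 18, 12 and 7 counts in the siALDOA libraries, against 9, 9 and 15 in siControl. The strand setting of the counting is not stated, so reads of APOBEC3B and APOBEC3B-AS1 within the overlap cannot be told apart. Neither gene was called (adjusted p = 0.869 and 0.782 by edgeR's quasi-likelihood test with Benjamini-Hochberg adjustment). Of 8 flanking genes of the cluster, from SUN2 to SYNGR1, 7 were tested and 0 were called, against 4.36% higher and 5.29% lower of all tested genes. At an unadjusted p under 0.05, 1 was higher, CBX6, a chromobox gene between NPTXR and APOBEC3A. Its log2 fold change was 0.24, with an adjusted p of 0.0849 by edgeR's quasi-likelihood test with Benjamini-Hochberg adjustment and 0.0376 with the replicate number as a block. DESeq2 and limma-voom called 0 of the 7, while edgeR called 1 of them higher with library totals alone and 1 without siALDOA replicate 1.

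The genes nearest in function come next, beside shares of 4.36% called higher and 5.29% lower among all tested genes. For each list gene said here to have risen or fallen, the 3 siALDOA libraries all lay on the same side of the 3 siControl libraries. Of 6 other APOBEC deaminases and cofactors of APOBEC1, 2 were tested. RBM47, an RNA-binding cofactor of APOBEC1, fell by 0.18 on the log2 scale (adjusted p = 0.0439 by edgeR's quasi-likelihood test with Benjamini-Hochberg adjustment), and this call was lost in 7 of 14 alternatives, with adjusted p up to 0.491 with library totals alone. SYNCRIP, the other, had a log2 fold change of -0.17 and an adjusted p of 0.0714 by the same edgeR quasi-likelihood test with Benjamini-Hochberg adjustment, and 0.0256 with the replicate number as a block. Both genes were also called lower by DESeq2, without the filter on low counts and without siControl replicate 1. Of 6 ADAR-related and tRNA adenosine deaminases, ADAT1, ADAT2 and ADAT3 were tested and 0 were called, also at an unadjusted p under 0.05 and by DESeq2 and limma-voom. ADARB2, ADAD1 and ADAD2 were at 0 in all 6 libraries.

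Sensors of double-stranded RNA and Z-RNA and their adaptor and effectors, a list around the RNA that ADAR edits, were mostly higher. Of 10 such genes, all tested, 8 were called higher and 1 lower, against 4.36% and 5.29% of all tested genes. Their median log2 fold change was 1.16, against 0.002 for all tested genes. DDX58, the sensor RIG-I, stood at 134, 147 and 151 CPM with siALDOA and 60.8, 64.2 and 62.3 CPM with siControl. The groups did not overlap, and the log2 fold change was 1.21 (SE 0.06, adjusted p = 6.02e-11 by edgeR's quasi-likelihood test with Benjamini-Hochberg adjustment). IFIH1, the sensor MDA5, stood at 99.3, 110 and 109 CPM against 42.8, 48.4 and 42.5 CPM and rose by 1.25. OAS2 and OAS1, which make the activator of RNase L, rose by 1.58 and 1.12. The 8 calls held in each of the 14 alternatives. Besides these 4 by smallest p, OAS3, EIF2AK2, ZBP1 and DHX58 were called higher and are named after their values were seen. EIF2AK2, the kinase PKR, rose by 0.69, and ZBP1, which binds Z-RNA as the long form of ADAR does, rose by 2.38 from 1.06, 2.16 and 1.79 CPM to 5.78, 10.8 and 9.47 CPM. MAVS, the adaptor of IFIH1 and DDX58, fell by 0.22 (adjusted p = 0.0185 by edgeR's quasi-likelihood test with Benjamini-Hochberg adjustment). That call was lost with library totals alone (adjusted p = 0.315) and without siControl replicate 1 or replicate 3. The ADAR log2 fold change of 0.43 was smaller than that of each of the 8 genes called higher, and differences between ADAR and these genes were not tested.

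Of 9 interferon signalling factors, all tested, 4 were called higher and 0 lower, against 4.36% and 5.29% of all tested genes. Their median log2 fold change was 0.09, against 0.002 for all tested genes. STAT2, a transcription factor of type I interferon signalling, stood at 72.9, 86.4 and 84.3 CPM with siALDOA, against 46.1, 47.3 and 48.5 CPM in siControl. The groups did not overlap, and STAT2 rose by 0.78. IRF7 rose by 0.76, and IRF1 by 0.39. IRF9, the DNA-binding partner of STAT2, rose by 0.27 with an adjusted p of 0.0253 by edgeR's quasi-likelihood test with Benjamini-Hochberg adjustment, and lost its call in 5 of the 6 fits that left out 1 library (adjusted p up to 0.161). None of the 9 was called lower by DESeq2 or limma-voom, and 1, JAK1, was lower at an unadjusted p under 0.05. The receptor genes IFNAR1 and IFNAR2 had log2 fold changes of 0.06 and 0.05 and were not called.

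**Figure D4:**
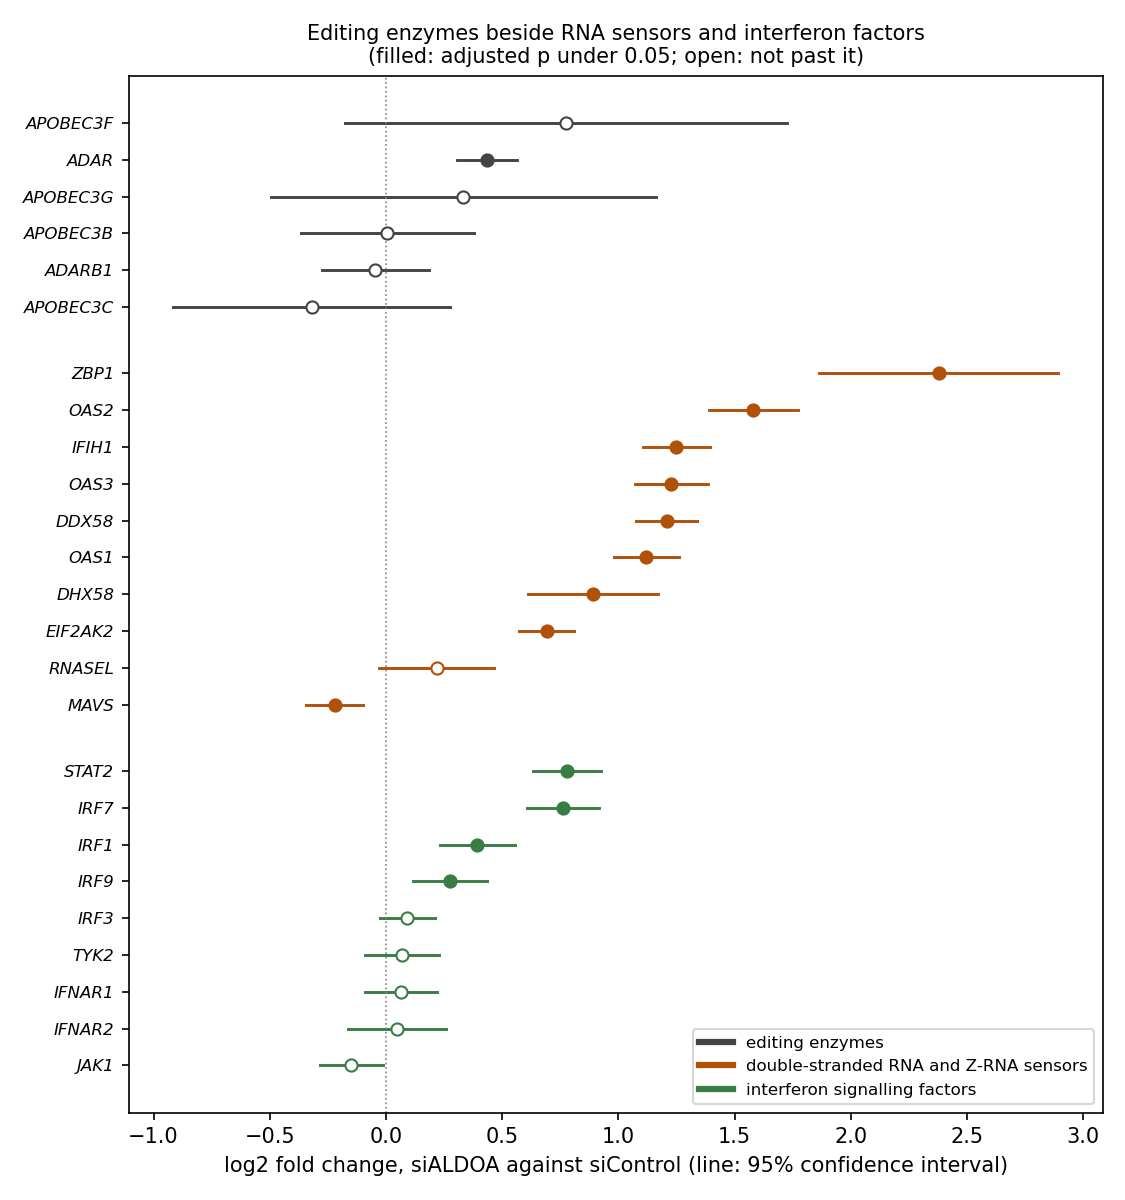
Log2 fold change of siALDOA against siControl (horizontal axis) with its 95% confidence interval (line) for the 6 tested editing enzymes (grey), 10 RNA sensors (orange) and 9 interferon factors (green); filled points passed an adjusted p of 0.05. ADAR, at 0.43, has a short interval from 0.30 to 0.56, and the interval of APOBEC3F runs from -0.18 to 1.72.

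Promoters were looked at since ADAR, most of the sensors and 4 of the interferon factors were higher together. RefSeq windows of 300 bases (GRCh38.p14, 250 bases before a start site and 50 after it) were found for 3 of the 9 enzymes, namely ADAR (3 windows), ADARB1 (4) and APOBEC3H (1). APOBEC3A, APOBEC3B, APOBEC3C, APOBEC3D, APOBEC3F and APOBEC3G had none. The core of the interferon-stimulated response element, GAAANN directly followed by GAAA, and the core of the interferon gamma-activated site (GAS), TTCNNNGAA, were searched on both strands. Neither occurs in any of the 8 windows of the enzymes. Of all 35116 windows, 3.57% hold the first and 7.66% the second, and of the 27305 genes with a window, 4.38% hold the first and 9.38% the second in at least 1 of them. Of the 8 sensor genes called higher, 5 had a window, of which 3 (IFIH1, EIF2AK2 and OAS3) hold the first motif and 1 (OAS1) the second. Of the 4 interferon factors called higher, 3 had a window, of which 0 hold the first motif and 2 (IRF9 and IRF1) the second. The absence of a match says only that these letters are not in the window, and GAAA repeats at another spacing were not searched. The parts of a pair of ADAR windows that lie before any annotated exon are shown beside that of IFIH1, with the 5′ to 3′ order of the minus strand and motif bases in capitals. The first lies at chr1:154628014-154628247, the second at chr1:154608826-154609047 within the ADAR gene, and that of IFIH1 at chr2:162318685-162318839.
ADAR, upstream start: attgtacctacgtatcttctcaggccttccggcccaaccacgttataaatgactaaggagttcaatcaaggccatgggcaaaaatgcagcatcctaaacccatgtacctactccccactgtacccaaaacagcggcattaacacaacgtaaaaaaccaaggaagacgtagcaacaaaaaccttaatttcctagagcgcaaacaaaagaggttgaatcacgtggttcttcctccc
ADAR, downstream start: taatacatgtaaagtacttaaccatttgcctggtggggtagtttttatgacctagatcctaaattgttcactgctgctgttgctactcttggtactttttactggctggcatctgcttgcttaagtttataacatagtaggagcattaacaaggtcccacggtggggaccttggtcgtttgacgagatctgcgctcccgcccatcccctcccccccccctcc
IFIH1: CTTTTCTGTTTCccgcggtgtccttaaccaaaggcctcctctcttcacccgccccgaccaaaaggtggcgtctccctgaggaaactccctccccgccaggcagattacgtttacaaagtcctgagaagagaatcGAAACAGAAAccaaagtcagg
The first capitals of IFIH1 belong to a pair of overlapping matches, of which 1 begins in an exon of the neighbouring gene GCA and is printed without its start, and the other is printed whole. The last capitals are a match 21 bases before the start site.

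Of 13 partners and regulators of the ADAR enzymes, 12 were found and tested, and DDX15 was not analysed here. None was called higher, also at an unadjusted p under 0.05 and by DESeq2 and limma-voom (0 each), and 3 were called lower. Among all tested genes, 4.36% were called higher and 5.29% lower. DICER1, the nuclease that ADAR binds in microRNA processing, stood at 68.8, 66.8 and 62.2 CPM with siALDOA and 79.0, 84.4 and 85.9 CPM with siControl. The groups did not overlap, and DICER1 fell by 0.33 on the log2 scale (adjusted p = 0.00177 by edgeR's quasi-likelihood test with Benjamini-Hochberg adjustment, and 0.0504 with library totals alone). STAU1 and ILF2, both binders of structured RNA, fell by 0.19 and 0.20 (adjusted p = 0.0311 and 0.0428 by edgeR's quasi-likelihood test with Benjamini-Hochberg adjustment). Their calls were lost in 6 and 8 of 14 alternatives, with adjusted p up to 0.445 and 0.409. WWP2, a ubiquitin ligase of ADARB1, had a log2 fold change of -0.23 with an adjusted p of 0.0853 by edgeR's quasi-likelihood test with Benjamini-Hochberg adjustment and 0.0143 with the replicate number as a block.

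Transcripts with known recoding sites give a view of the substrates' levels, not of editing, which counts per gene do not show. Of 14, 10 were tested, 0 were called higher and 2 lower, against 4.36% and 5.29% of all tested genes. Their median log2 fold change was -0.004. No substrate was higher at an unadjusted p under 0.05 or by DESeq2 and limma-voom. FLNA, the actin crosslinker filamin A, stood at 226, 262 and 285 CPM with siALDOA and 348, 355 and 383 CPM with siControl. It fell by 0.49 on the log2 scale (adjusted p = 9.28e-05 by edgeR's quasi-likelihood test with Benjamini-Hochberg adjustment) without overlap of the groups, and its call held in all 14 alternatives. TMEM63B, an ion channel gene, fell by 0.31 (adjusted p = 0.0114 by edgeR's quasi-likelihood test with Benjamini-Hochberg adjustment). Its call was lost with library totals alone and without siALDOA replicate 2 or siControl replicate 3, with adjusted p up to 0.133. GRIA2, HTR2C and KCNA1, substrates of the nervous system, were at 0 in all 6 libraries.

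On the side of the APOBEC3 enzymes, 11 genes of uracil removal from DNA were tested, and 0 were called higher, also at an unadjusted p under 0.05 and by DESeq2 and limma-voom. Lower calls numbered 1. Among all tested genes 4.36% were called higher and 5.29% lower, so counts this small say little about the list. UNG, the glycosylase that removes the uracil APOBEC3 enzymes leave, fell by 0.23 (adjusted p = 0.0267 by edgeR's quasi-likelihood test with Benjamini-Hochberg adjustment). Its call was lost in 5 of 14 alternatives, with adjusted p up to 0.295 with library totals alone. Of 14 regulators of APOBEC3B transcription, all tested, 3 were called higher and 0 lower, against 4.36% and 5.29% of all tested genes. Their median log2 fold change was 0.08. RELB and NFKB2, the non-canonical NF-kB pair, rose by 0.33 and 0.29 (adjusted p = 0.0489 and 0.0440 by edgeR's quasi-likelihood test with Benjamini-Hochberg adjustment). RBL2, a repressor of cell cycle genes, rose by 0.27 (adjusted p = 0.0257 by the same edgeR test with Benjamini-Hochberg adjustment). The calls of RELB, NFKB2 and RBL2 were lost in 9, 5 and 4 of 14 alternatives, with adjusted p up to 0.148, 0.260 and 0.141. In this list 1 gene, LIN52 of the DREAM repressor complex, was lower at an unadjusted p under 0.05, and DESeq2 and limma-voom called 0 lower.

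The epithelial label was checked on 8 colorectal epithelial markers, and all 8 were expressed. Their summed level was 8382, 8461 and 8617 CPM with siALDOA and 9193, 9432 and 9659 CPM with siControl, lower in every siALDOA library, with KRT8 the most abundant. KRT18 was the 1 marker called by edgeR, and it fell by 0.28 (adjusted p = 0.0152 by edgeR's quasi-likelihood test with Benjamini-Hochberg adjustment, lost in 5 of 14 alternatives with adjusted p up to 0.243). CEACAM5 had a log2 fold change of -0.46 with an adjusted p of 0.0516 by the same edgeR test with Benjamini-Hochberg adjustment and 0.0169 with the replicate number as a block. DESeq2 called 2 of the 8 lower and limma-voom 3, against 0 by edgeR with library totals alone. None of the 8 was higher at an unadjusted p under 0.05 or by DESeq2 and limma-voom. Of all tested genes, edgeR called 4.36% higher and 5.29% lower. Of 15 blood cell markers, 4 were tested and 1 was called, CD14, which rose by 0.32 (adjusted p = 0.0485 by edgeR's quasi-likelihood test with Benjamini-Hochberg adjustment, lost in 6 of 14 alternatives with adjusted p up to 0.153). Their summed level was 1461, 1395 and 1380 CPM with siALDOA and 1325, 1323 and 1276 CPM with siControl, nearly all of it from LYZ, which stood between 1246 and 1429 CPM. Without LYZ it was 31.7, 32.8 and 32.3 CPM in the siALDOA libraries, against 26.3, 29.1 and 30.01 CPM in siControl. CD3E, CD3D, CD2, MS4A1 and TYROBP were at 0 in all 6 libraries, and PTPRC, the pan-leukocyte marker, had 1 count in 1 library. The part of both marker lists in the ADAR result was not tested.

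Likeness to ADAR was looked for among 10078 tested genes that averaged 10 CPM or more. Those closest to it over the 6 libraries were TRIM25, ANKFY1, PDZK1IP1, INPP5D and CNP. Likeness was the root mean square difference of log2 CPM, centred on the siControl mean, and ran from 0.029 for TRIM25 to 0.041 for CNP. Their log2 fold changes lay between 0.39 for CNP and 0.45 for INPP5D. That these are close to the value of ADAR follows from how the genes were picked. For APOBEC3B, the APOBEC3 gene with the highest mean level, the 5 were DENND4C, ORC5, FGFR1OP2, FBXL20 and PDXDC2P-NPIPB14P, among 10079 genes with differences from 0.037 to 0.048.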

How the data were processed

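RNA-Seq was analysed in 6 HT29 libraries, 3 siALDOA and 3 siControl. Per the submitters' processing notes and the paper's methods, the authors aligned the reads with TopHat2 to hg38 and counted them with gfold, and the deposited values are whole-number counts per gene symbol without normalization. Which annotation was counted, whether strand was used, and what was done with multi-mapping reads is not given in the sources used here.

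Counts were fitted in R 4.3.3 with edgeR 4.0.16 (filterByExpr, TMM, quasi-likelihood F-test, Benjamini-Hochberg adjusted p under 0.05) on all genes, without a covariate. Standard errors are the log2 fold change over the square root of F. Intervals are 95%, and the floor for 0 counts is 3 counts over a group. Alternatives were DESeq2 1.42.0, limma-voom (limma 3.58.1), library totals alone or without ribosomal RNA genes, upper quartile normalization, a replicate block, other filters on low counts (none, or 10 counts or more per library), an unadjusted P under 0.01 and each library left out in turn. The script was tested on simulated data.

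Deviations of same-numbered libraries from their group means correlated at 0.214, 0.138 and 0.210 over 10079 genes. Of the pairs with different numbers, siALDOA 2 with siControl 3 correlated at 0.149, above the same-numbered 0.138, and the others at 0.04 or less. These values do not settle whether the replicate numbers of the labels pair the libraries. The main fit was unpaired, and the replicate block was run as an alternative. No pair of libraries of a group agreed within sampling noise.

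Gene coordinates, exon lengths and transcripts came from GENCODE release 44 on hg38, and promoter windows from RefSeq. Biopython 1.88 aligned coding sequences in python 3.11.15, and figures used matplotlib 3.10.9. Named were the 9 enzymes, ALDOA, up to 4 called genes per direction of each other list by smallest p, marker genes at 0, and the 5 genes most like ADAR and APOBEC3B. Other names follow the results they belong to and were chosen after their values were seen. Some list genes are not reported here and are left out of the list counts and medians. Members and lists were chosen with earlier results of these data known. Proteins of the enzymes, and with them the planned count of deaminase domains, were not analysed here.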

Additional observations from a re-analysis of the deposited data

How the results depend on the processing

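ADAR was called higher in all 14 alternative fits, with log2 fold changes from 0.39 to 0.51 and adjusted p up to 0.0015 by edgeR, limma-voom or DESeq2, and at an unadjusted P under 0.01. No other enzyme was called in any fit that gave it an adjusted p. DESeq2 gave none for APOBEC3F and APOBEC3G, and APOBEC3F was not tested with at least 10 counts in every library. With library totals only, the median of all tested genes moved to 0.075 and 279 genes were called lower. ADARB1 turned to 0.0253 under that scaling. Leaving out each library in turn gave 359 to 644 genes called higher and 471 to 790 lower, the lowest without siControl replicate 2 or 3. ADARB1 lay between -0.132 and 0.00604 and APOBEC3B between -0.0699 and 0.117. The cause was not tested. The replicate block gave 987 genes higher and 1175 lower and ADAR 0.43 (adjusted p = 9.60e-07 by edgeR's quasi-likelihood test), and it changed no other call among the enzymes and lists than those of CBX6, SYNCRIP, WWP2 and CEACAM5. The APOBEC3 genes other than APOBEC3B and APOBEC3C rest on 38 counts or fewer per library, and the parts of depth and of the spread between libraries in their wide intervals were not tested.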
